A study of Mus musculus with 6 samples.

Results

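The epidermal growth factor (EGF) receptor family and its ligands were followed as 10 genes in mouse tumor organoids, chosen by name: the receptor genes Egfr, Erbb2 and Erbb3, the ligand genes Tgfa, Areg, Ereg, Hbegf, Btc and Epgn, and the feedback inhibitor gene Errfi1. All 10 were found by identifier among the 20756 genes measured. Of these, 8 passed a filter of at least 1 CPM (a gene's reads as a share of the library, scaled to a common depth) in at least 3 of the 6 libraries and were tested, while Epgn and Ereg did not pass it. One group of 3 libraries came from organoids with a guide RNA that targets Prkci, which encodes an atypical protein kinase C (sgPrkci), and 3 libraries came from organoids with a control guide (sgScr). All 6 shared the C57BL/6 strain and the tissue label small intestine. The organoids derived from an intestinal tumor that had spread to the liver, were embedded in basement membrane extract and were collected without treatment at 72 h. The medium of both groups held recombinant human EGF at 50 ng/ml, so every library came from cells already exposed to a ligand of EGFR. The submitters describe the libraries of a group as biological replicates. Whether they stem from separate edits or clones was not stated in the labels, so p-values measure the spread between these libraries, which may in part be technical.

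EGF family ligands are made as membrane-anchored precursors that proteases cut free at the cell surface. A ligand brings receptor chains together in pairs, and the paired kinases phosphorylate each other and pass the signal to RAS and ERK. EGFR binds the EGF-like ligands directly, ERBB2 has no known ligand and acts as a partner chain, and ERBB3 has a weak kinase and binds neuregulins. In the gut, EGFR ligands sustain the growth of crypts and of organoid cultures and promote repair of the epithelium. ERRFI1, also known as MIG6, is induced by receptor signalling and blocks the receptor kinase.

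Depth was 2141125 to 2815760 reads in sgPrkci libraries and 2821908 to 3048170 reads in sgScr libraries, so that 1 read was worth 0.328 to 0.467 CPM. Prkci itself was at 52.4 ± 4.99 CPM in sgPrkci and 54.9 ± 8.60 CPM in sgScr (SD, n = 3 each). QuantSeq counts only the 3' end of a transcript, and the labels do not place the guide, so the Prkci level was no check of the genotype. All 7 epithelial markers examined were present, with a summed level of 3668 to 4071 CPM in sgPrkci and 3427 to 3957 CPM in sgScr libraries. Of these, Epcam and Cldn4 were higher in sgPrkci, by 0.48 and 0.65 on the log2 scale, and Krt18 and Cldn7 were lower (-0.36 and -0.45). Of 7 intestinal markers 5 passed the filter, whereas Cdx1 and Hnf4a, which mark intestinal identity, had 1 and 7 reads in all. The intestinal markers summed to 862 to 948 CPM in sgPrkci and 323 to 345 CPM in sgScr, with Cdh17, Vil1 and Gpa33 higher and Cdx2 lower in sgPrkci. The largest part of that difference was Cdh17, at 497 ± 39.6 CPM in sgPrkci and 75.4 ± 9.80 CPM in sgScr. Lgals4 did not pass (limma adjusted p = 0.17). Another 5 immune, 2 fibroblast, 2 endothelial and 2 hepatocyte markers were not analysed here. The 6 fibroblast markers summed to 0.710 to 2.34 CPM in sgPrkci and 0.328 to 2.35 CPM in sgScr, and the endothelial markers Pecam1 and Cdh5 were at 0 in every library. The 3 listed immune markers summed to 7.94 to 12.4 CPM in sgPrkci and 5.58 to 7.38 CPM in sgScr, nearly all of it Cd68. Cd68 was higher in sgPrkci, by 0.69 on the log2 scale (limma adjusted p = 0.029). The 4 hepatocyte markers summed to at most 6.41 CPM in an sgPrkci library and 16.1 CPM in an sgScr library, with Ttr at 0 in every library. Among them Trf was higher, at 38 reads in sgPrkci and 1 read in sgScr (limma adjusted p = 3.0e-06). Trf passed the filter only through the sgPrkci libraries, so it could be tested only as a higher gene. Apoa1 was lower, at 5 reads in sgPrkci and 69 reads in sgScr (limma adjusted p = 0.012). Of those 69 reads 48 were in sgScr replicate 1, with 5 and 16 in sgScr replicates 2 and 3. The part of these marker differences in the results on ligands and receptors was not tested.

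Transcripts of 4 of the 6 ligand genes were higher in sgPrkci organoids, while receptor and Errfi1 transcripts did not pass the test. Between Hbegf and 2 of the receptors that split follows the threshold, not the size of the change. The log2 fold changes of Erbb2 and Erbb3 were 0.34 and 0.30, above the 0.28 of Hbegf, which passed. Those of Egfr and Errfi1 were 0.01 and 0.08. Tgfa, Btc, Areg and Hbegf rose, and 0 of the 8 tested members fell. That 0 came from limma on log2(CPM + 1). At an unadjusted p under 0.05 it was also 0, and with edgeR and with DESeq2 it was again 0. Among all 12195 tested genes 1387 rose, which is 11.4%, and 2495 fell, which is 20.5%, so that 31.8% were called in either direction. With DESeq2 9.17% fell, and with edgeR 14.9%. In bulk libraries a smaller number of cells of one kind and less RNA per cell cannot be told apart. The median log2 fold change, sgPrkci minus sgScr, was 0.32 over the 8 tested members and -0.11 over all tested genes.

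**Figure D1:**
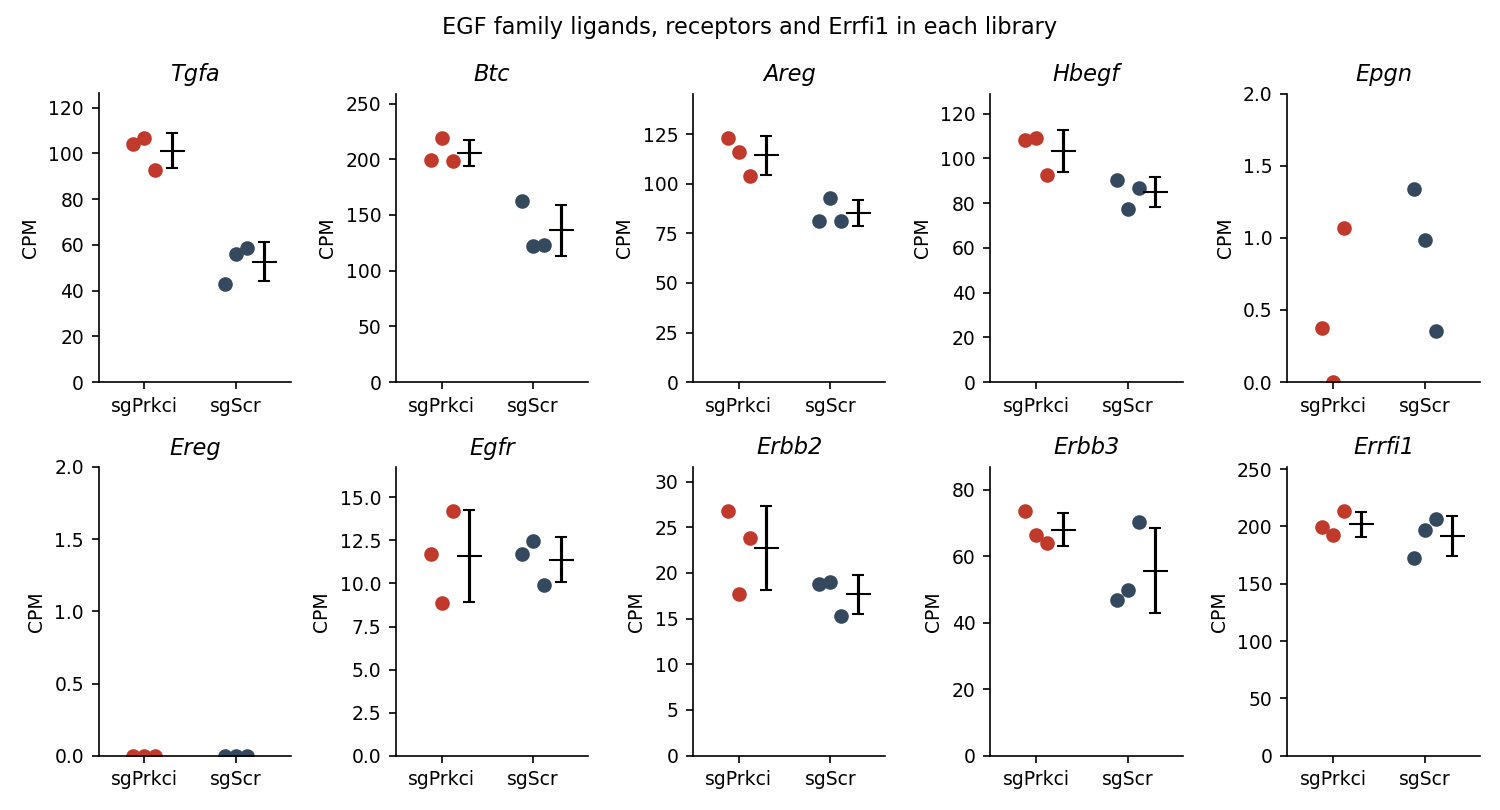
Level of each of the 10 genes in CPM (vertical axis, each panel with its own scale from 0) in the 3 sgPrkci libraries (red) and the 3 sgScr libraries (blue), with mean ± SD as a bar except for Epgn and Ereg. All sgPrkci points lie above all sgScr points for Tgfa, Btc, Areg and Hbegf, and the groups overlap for the receptors and Errfi1.

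Tgfa (ENSMUSG00000029999, chromosome 6, 86195223 to 86275719, plus strand) encodes transforming growth factor alpha, an EGFR ligand of many epithelia. It was at 104, 107 and 92.7 CPM in sgPrkci replicates 1, 2 and 3, and at 42.9, 56.1 and 58.8 CPM in sgScr replicates 1, 2 and 3. The groups did not overlap, and the lowest sgPrkci library was far above the highest sgScr library. The means were 101 ± 7.55 CPM and 52.6 ± 8.51 CPM (SD, n = 3 each), a log2 fold change of 0.94 (SE 0.12, limma adjusted p = 4.7e-07), or 1.92-fold with a 95% interval of 1.62 to 2.28. Among all tested genes 96.8% had a smaller log2 fold change. The unclassified gene Gm43917 overlaps an exon of Tgfa on the other strand and was not analysed here.

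Btc (ENSMUSG00000082361, chromosome 5, 91357261 to 91402994, minus strand) encodes betacellulin, a ligand of EGFR and ERBB4. It was at 199.5, 219.5 and 199 CPM in sgPrkci, and at 163, 122 and 123 CPM in sgScr. The groups were apart, with sgScr replicate 1 standing above its own group and still below every sgPrkci library. Btc thus had a log2 fold change of 0.60 (SE 0.10, limma adjusted p = 3.1e-05), or 1.52-fold (1.32 to 1.76).

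Areg (ENSMUSG00000029378, chromosome 5, 91139599 to 91148432, plus strand) encodes amphiregulin, an EGFR ligand of lower affinity that is prominent in epithelial repair. It was at 123, 116 and 104 CPM in sgPrkci, and at 81.5, 92.8 and 81.2 CPM in sgScr. Each sgPrkci library was above each sgScr library. Areg thus had a log2 fold change of 0.42 (SE 0.10, limma adjusted p = 0.0024), or 1.34-fold (1.16 to 1.55).

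Hbegf (ENSMUSG00000024486, chromosome 18, 36504927 to 36515805, minus strand) encodes heparin-binding EGF-like growth factor, a ligand of EGFR and ERBB4. Its level was 108, 109 and 92.7 CPM in sgPrkci, and 90.5, 77.4 and 86.8 CPM in sgScr. The groups met closely without overlap, since sgPrkci replicate 3 was just above sgScr replicate 1. On the log2 scale Hbegf was higher by 0.28 (SE 0.11, limma adjusted p = 0.043), or 1.21-fold (1.04 to 1.41). This call rested on single libraries: the adjusted p was 0.15 without sgPrkci replicate 1, 0.15 without sgPrkci replicate 2, 0.20 without sgScr replicate 2 and 0.059 without sgScr replicate 3. It also ended with no filter on low genes (adjusted p = 0.066) and with plain eBayes moderation (adjusted p = 0.15). With edgeR and with DESeq2 the adjusted p was 0.0047 and 0.021.

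All sgPrkci libraries were above all sgScr libraries for these 4 genes, an arrangement shown by 1944 of 12195 tested genes (15.9%). The opposite order was shown by 27.1%, and groups without overlap in either order by 43%. Taking the 6 ligand genes as a sum of 3' tags, the total was 536, 552 and 489 CPM in sgPrkci and 379, 349.7 and 350.5 CPM in sgScr. The sgPrkci mean of 525 ± 32.5 CPM was 1.46 times the sgScr mean of 359.8 ± 16.8 CPM. The sum of the 3 receptor genes was 112, 92.9 and 102 CPM in sgPrkci and 77.4, 81.4 and 95.3 CPM in sgScr, and these groups overlapped.

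The remaining ligands were near or below the limit of detection. Epgn (ENSMUSG00000035020, chromosome 5, 91027464 to 91035215, plus strand) encodes epigen, a low-affinity EGFR ligand, and had 1, 0 and 3 reads in sgPrkci libraries and 4, 3 and 1 reads in sgScr libraries. The ratio of sgPrkci over sgScr by depth was 0.582, with an exact 95% counting interval of 0.128 to 2.17, so a difference was not detectable at this depth. Ereg (ENSMUSG00000029377, chromosome 5, 91074622 to 91093646, plus strand), which encodes epiregulin, had 0 reads in all 6 libraries. Over all 16461234 reads that allows a level of up to 0.182 CPM (3 reads). The gene Gm19610, on the other strand, shares 152 bases with Ereg and was not analysed here. Of the other family genes, Egf had 0 reads in sgPrkci and 1 read in sgScr, and Nrg2 and Nrg4 each had 1 read in sgPrkci and 0 reads in sgScr. Erbb4, Nrg1 and Nrg3 were not analysed here. The receptor genes measured were therefore Egfr, Erbb2 and Erbb3, and the ligands at more than a few reads were the 4 named above.

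The receptor genes did not pass the test. Egfr (ENSMUSG00000020122, chromosome 11, 16752203 to 16918158, plus strand) was at 11.7, 8.87 and 14.2 CPM in sgPrkci and 11.7, 12.5 and 9.92 CPM in sgScr. The groups overlapped, with both the lowest and the highest library in sgPrkci. The log2 fold change was 0.01 (SE 0.22, limma adjusted p = 0.98), or 1.01-fold with an interval of 0.741 to 1.37. These values rested on 19 to 40 reads per library, and the interval leaves room for changes of that size in either direction. The sign turned without sgScr replicate 3 (-0.08), without sgPrkci replicate 1 (-0.01) and without sgPrkci replicate 3 (-0.14).

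Erbb2 (ENSMUSG00000062312, chromosome 11, 98412470 to 98437716, plus strand) was at 26.8, 17.7 and 23.8 CPM in sgPrkci and 18.8, 19.0 and 15.2 CPM in sgScr. The groups overlapped through sgPrkci replicate 2, which was the library of lowest depth. The log2 fold change was 0.34 (SE 0.18, limma adjusted p = 0.17), with a fold interval of 0.975 to 1.63. The last 9 bases of Erbb2 are shared with Mien1, a gene on the other strand whose 3' end meets it, and no source used here gives the strand setting of the counting. Mien1 was higher in sgPrkci, at 121 ± 5.63 CPM against 70.7 ± 9.06 CPM in sgScr (limma adjusted p = 1.7e-06), and its part in the Erbb2 count was not tested.

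Erbb3 (ENSMUSG00000018166, chromosome 10, 128567523 to 128589652, minus strand) was at 73.5, 66.3 and 63.9 CPM in sgPrkci and 46.9, 49.9 and 70.2 CPM in sgScr. The sgScr replicate 3 lay among the sgPrkci libraries, and the other 2 sgScr libraries were below all of them. The log2 fold change was 0.30 (SE 0.13, limma adjusted p = 0.081), with a fold interval of 1.02 to 1.49. Without sgScr replicate 3 it was 0.48 (adjusted p = 0.0059). With any other library left out it was 0.19 to 0.34 and did not pass (limma adjusted p of 0.098 to 0.29).

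The calls of Erbb2 and Erbb3 differed with the scaling of libraries and with the test used. On the CPM scale 35.7% of all calls were higher in sgPrkci, and with TMM factors 51.4% were, with 1918 genes (15.7% of those tested) higher and 1816 (14.9%) lower. The median log2 fold change over all genes shifted by 0.09 with TMM factors. Erbb3 passed with TMM factors (log2 fold change 0.40, adjusted p = 0.017) and with edgeR on the reads (0.40, adjusted p = 0.017), but not with DESeq2 (adjusted p = 0.074). Erbb2 passed with edgeR (0.48, adjusted p = 0.049) and with quantile normalization (0.48, adjusted p = 0.045), and not with TMM factors (0.43, adjusted p = 0.070) or DESeq2 (adjusted p = 0.18). Egfr passed under none of the 18 alternatives. With edgeR 1939 of all tested genes were higher (15.9%), and with DESeq2 1422 (11.7%).

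Genes of some chromosomes shifted as a group. Egfr and Erbb2 lie on chromosome 11, where the 647 genes that averaged 10 CPM or more had a median log2 fold change of -0.40, against -0.11 over all genes. With each chromosome's own median subtracted, Erbb2 was at 0.73 (adjusted p = 0.0022), Egfr at 0.41 (adjusted p = 0.16) and Erbb3 at 0.47 (adjusted p = 0.0075). In that setting 1603 of all tested genes (13.1%) were higher, and 26.5% were called in either direction. The medians of chromosomes 5 and 6, which carry Areg, Btc and Tgfa, were both 0.01, and those 3 genes kept values of 0.41, 0.59 and 0.93 with the medians removed. Chromosome 18, with Hbegf, had a median of -0.14.

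**Figure D2:**
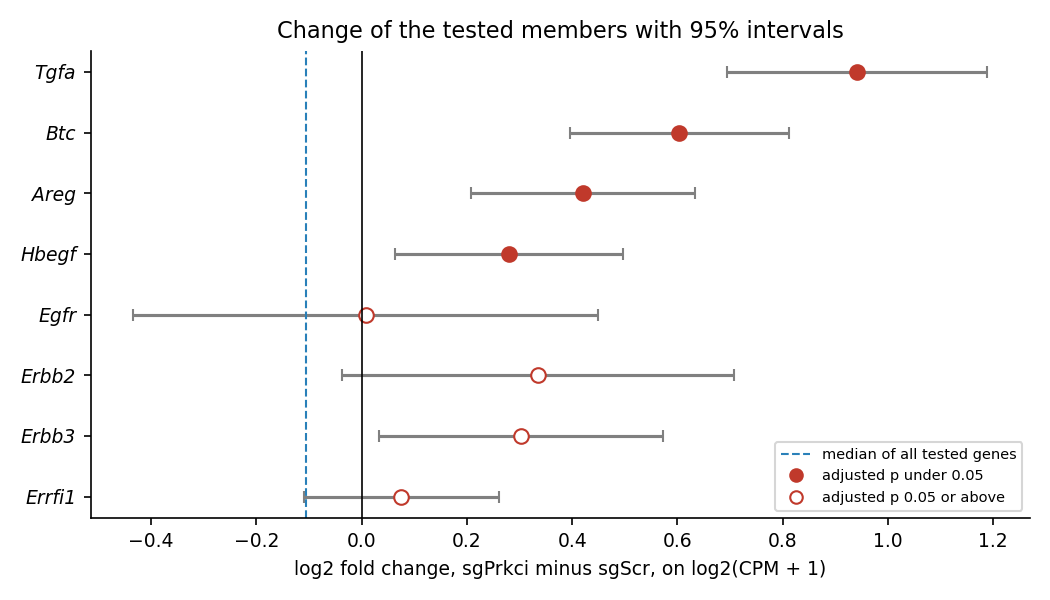
Log2 fold change of each tested member, sgPrkci minus sgScr, on log2(CPM + 1) (horizontal axis), with 95% intervals from limma. Filled points passed at an adjusted p under 0.05, and the dashed line marks the median of all tested genes at -0.11. The 4 ligand genes are filled and the 3 receptor genes and Errfi1 are open.

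Errfi1 (ENSMUSG00000028967, chromosome 4, 150853919 to 150868892, plus strand) was at 199.5, 192 and 213 CPM in sgPrkci and 173, 197 and 206 CPM in sgScr. The groups overlapped. The log2 fold change was 0.08 (SE 0.09, limma adjusted p = 0.57), or 1.05-fold with an interval of 0.927 to 1.20, so this feedback gene had the narrowest interval of the 8 tested members. Under the 18 alternatives its log2 fold change ran from 0.00 to 0.18 and it did not pass in any of them.

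**Figure D3:**
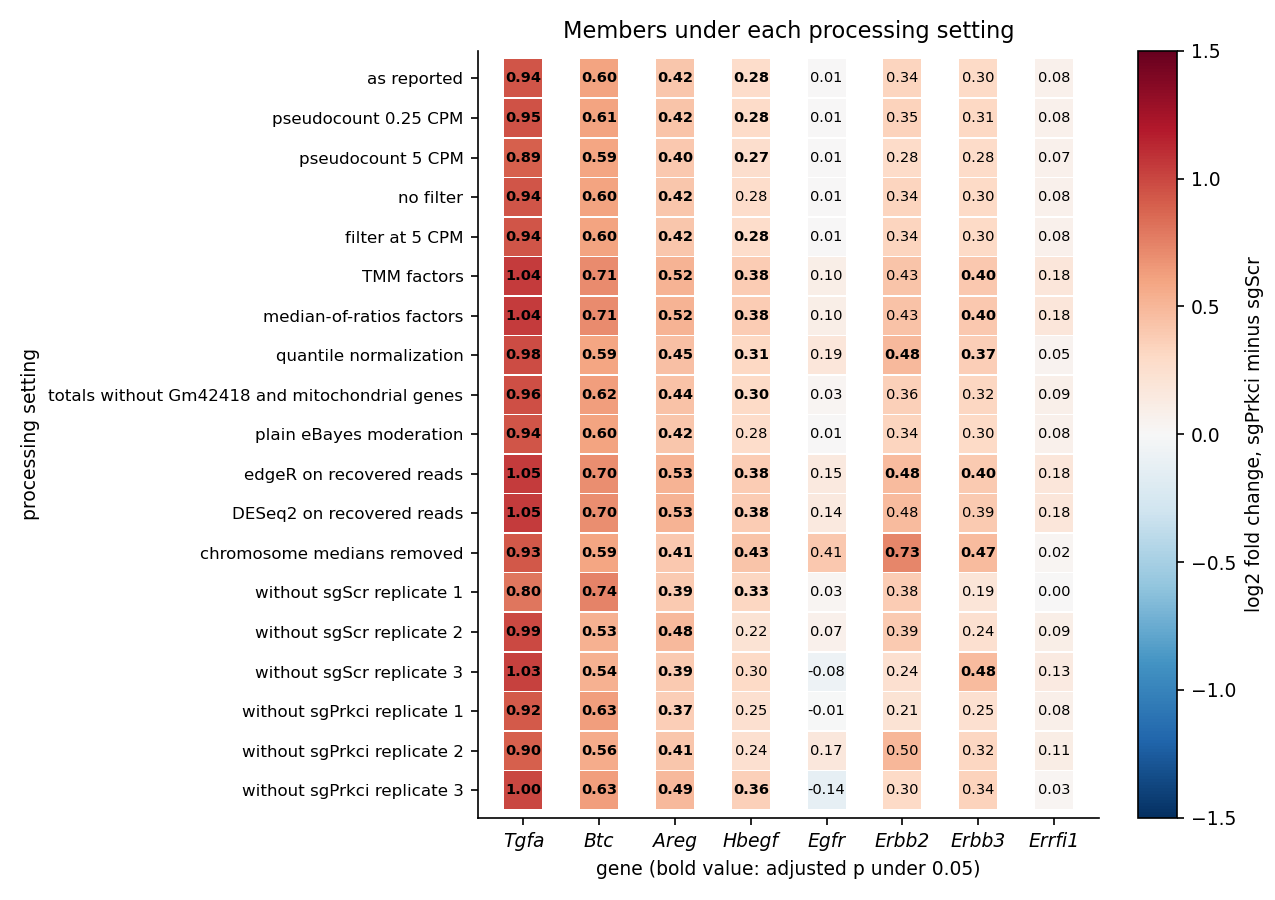
Log2 fold change of the 8 tested members, sgPrkci minus sgScr, as printed values and colours, as reported (top row) and under 18 alternatives. Bold values passed at an adjusted p under 0.05. The columns of Tgfa, Btc and Areg are bold in every row, that of Hbegf in 13 of 19 rows.

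Promoter windows are shown for the 3 ligands whose calls held in every setting and for the downstream of the 2 Errfi1 windows, since Areg and Errfi1 share motifs. The windows run from 250 bases before to 50 bases after the RefSeq start (GRCm38.p6, gene strand, 5' to 3'), and 7 of the 10 members matched the RefSeq promoter table with 8 windows. Capitals mark matches to TGACGTCA, the cyclic AMP response element, searched on both strands, and to TATAAA, the TATA box, searched on the strand of the gene.
Tgfa (chr6:86194972-86195271, + strand): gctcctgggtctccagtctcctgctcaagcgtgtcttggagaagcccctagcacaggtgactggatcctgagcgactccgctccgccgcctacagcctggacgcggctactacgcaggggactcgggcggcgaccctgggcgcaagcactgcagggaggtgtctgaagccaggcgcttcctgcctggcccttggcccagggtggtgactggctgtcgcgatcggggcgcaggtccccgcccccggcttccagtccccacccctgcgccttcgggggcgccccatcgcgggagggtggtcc
Btc (chr5:91402945-91403244, - strand): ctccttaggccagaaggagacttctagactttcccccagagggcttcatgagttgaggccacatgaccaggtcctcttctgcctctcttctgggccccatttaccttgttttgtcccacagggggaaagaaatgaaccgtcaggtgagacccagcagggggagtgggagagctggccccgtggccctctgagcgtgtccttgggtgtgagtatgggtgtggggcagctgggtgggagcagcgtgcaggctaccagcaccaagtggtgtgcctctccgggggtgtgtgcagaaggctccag
Areg (chr5:91139349-91139648, + strand): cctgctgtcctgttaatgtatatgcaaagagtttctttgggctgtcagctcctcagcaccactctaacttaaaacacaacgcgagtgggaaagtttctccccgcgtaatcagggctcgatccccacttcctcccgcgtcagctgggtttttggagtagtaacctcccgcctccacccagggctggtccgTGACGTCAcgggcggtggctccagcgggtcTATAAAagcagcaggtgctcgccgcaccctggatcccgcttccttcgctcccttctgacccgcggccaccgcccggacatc
Errfi1 (chr4:150854820-150855119, + strand): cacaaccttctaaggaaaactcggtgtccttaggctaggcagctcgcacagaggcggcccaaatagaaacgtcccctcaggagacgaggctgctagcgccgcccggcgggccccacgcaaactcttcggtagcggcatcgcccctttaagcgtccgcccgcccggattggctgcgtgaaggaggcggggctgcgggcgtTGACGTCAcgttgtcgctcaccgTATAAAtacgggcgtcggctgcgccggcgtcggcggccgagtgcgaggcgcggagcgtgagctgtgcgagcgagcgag
The Areg window held TGACGTCA 61 bases and TATAAA 31 bases before the start, and the Errfi1 window held them at 51 and 28 bases. The motifs did not overlap each other. Of 32851 windows of the same length 1.79% held TGACGTCA, 8.32% held TATAAA, and 36 windows (0.110%) held both. Neither motif was found in the windows of Tgfa, Btc, Egfr and Erbb2 or in the other Errfi1 window. The Epgn window held TATAAA 86 bases before the start and no TGACGTCA. The AP-1 motif TGANTCA, searched on both strands and present in 7.81% of all windows, was in none of the 8 member windows. The pair of motifs thus occurred in a gene that rose, Areg, and in one that did not pass, Errfi1. Matches are a description of these letters only.

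Epgn, Ereg, Areg and Btc lie on chromosome 5 within 375.5 kb, near the CXC chemokine genes, with the measured gene Gm19619 between Areg and Btc. Within 500 kb of that cluster 18 genes were measured and 10 tested, of which 6 rose, among them Areg and Btc, and 4 did not pass. Over all tested genes 11.4% rose and 20.5% fell. The window was drawn around the ligand genes, so Areg and Btc are in it by design. Mthfd2l, the neighbour of Epgn and a folate enzyme gene, had a log2 fold change of 0.12 (limma adjusted p = 0.60). Parm1, on the far side of Btc, was at 229 ± 16.9 CPM in sgPrkci and 200.3 ± 15.6 CPM in sgScr (limma adjusted p = 0.10). Rassf6, a RAS association domain gene at the outer edge, rose by 0.82 on the log2 scale. The neutrophil chemokine genes Cxcl5, Cxcl1 and Cxcl2 rose by 5.21, 2.92 and 2.46, the last on 55 reads in sgPrkci and 4 in sgScr, while Ppbp (-0.34, adjusted p = 0.28) and Cxcl15 (0.14, adjusted p = 0.80) did not pass. Cxcl2 passed the filter only through the sgPrkci libraries, so it could be tested only as a higher gene.

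**Figure D4:**
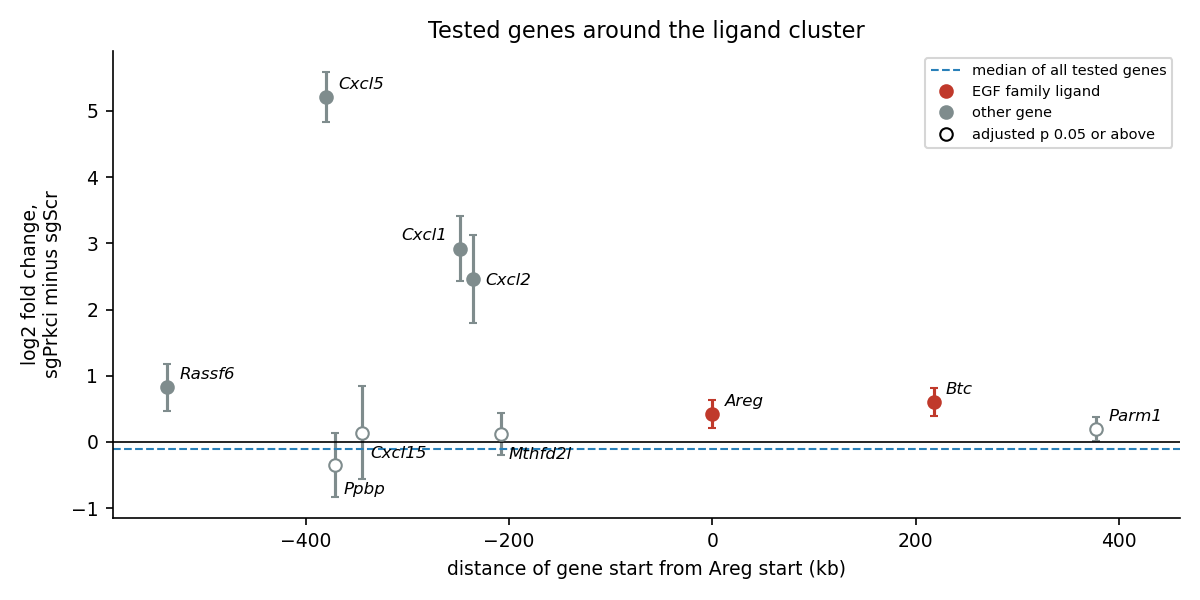
Log2 fold change, sgPrkci minus sgScr, with 95% intervals (vertical axis) of the 10 tested genes around the ligand cluster against the distance of their annotated start from that of Areg in kb (horizontal axis). The ligands Areg and Btc (red) are at 0.42 and 0.60, below the chemokine genes Cxcl5, Cxcl1 and Cxcl2 (grey, 2.46 to 5.21) and above the open points of Ppbp, Cxcl15, Mthfd2l and Parm1.

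Of 12 tested genes linked to ligand release and delivery, including the inhibitor gene Timp3, 4 rose and 2 fell, with a median log2 fold change of 0.17. Over all tested genes 11.4% rose and 20.5% fell, so 2 of 12 lower is no more than that background. Adam10, the main sheddase of betacellulin, rose to 366 ± 16.2 CPM in sgPrkci, against 233 ± 22.5 CPM in sgScr (log2 fold change 0.65, limma adjusted p = 7.1e-07). Cnih4, a cargo receptor gene of the early secretory pathway, rose to 379 ± 20.6 CPM, against 276 ± 19.2 CPM in sgScr. Adam15 and Rhbdl2 also rose, by 0.53 and 0.69. The call of Adam15 ended with plain eBayes moderation and without sgPrkci replicate 1 or sgScr replicate 3. That of Rhbdl2 ended with DESeq2, with plain eBayes moderation and without sgScr replicate 1 or sgPrkci replicate 3. Adam17, the main sheddase of TGF-alpha and amphiregulin, was at 129.8 ± 9.57 CPM in sgPrkci and 110.1 ± 3.32 CPM in sgScr (log2 fold change 0.23, adjusted p = 0.064). It passed under 6 of 18 alternatives, which were TMM and median-of-ratios factors, totals without Gm42418 and mitochondrial genes, edgeR, DESeq2 and the fit without sgPrkci replicate 3. Its escort Rhbdf2 was at 10.9 ± 2.08 CPM in sgPrkci and 7.64 ± 2.19 CPM in sgScr (adjusted p = 0.13), and passed with quantile normalization and with chromosome medians removed. Rhbdf1 and Frmd8, of the same list, leaned lower in sgPrkci (log2 fold change -0.25 and -0.13). Neither passed (limma adjusted p = 0.23 and 0.57). Both genes that fell were near the detection limit in sgPrkci. They passed the filter only through the sgScr libraries, so each could be tested only as a lower gene. Adam19, a metalloprotease gene, had 4 reads in sgPrkci and 102 in sgScr, and Timp3, which encodes an inhibitor of ADAM17, had 1 and 21 reads, a ratio by depth of 0.0554 with an exact 95% counting interval of 0.00134 to 0.345.

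Of 20 genes of receptor uptake and restraint 4 rose and 0 fell in limma, and the median was 0.16. At an unadjusted p under 0.05, 1 was lower, and edgeR and DESeq2 each called 0 lower. The 4 of 20 higher stand beside 11.4% of all tested genes, and the 0 lower beside 20.5%. In either direction 31.8% of all tested genes were called. Cblc, an epithelial ubiquitin ligase gene of the CBL family, rose to 35.0 ± 2.95 CPM in sgPrkci, against 15.5 ± 3.72 CPM in sgScr (log2 fold change 1.14, limma adjusted p = 7.5e-06). Stam, which sorts ubiquitinated receptors at endosomes, rose by 0.50, and Lrig2 and Socs5 by 0.52 and 0.39. The call of Lrig2 ended under 6 of 18 alternatives, which were DESeq2, plain eBayes moderation and the fits without sgScr replicate 2 or 3 or sgPrkci replicate 1 or 2. That of Socs5 ended under 5, which were plain eBayes moderation and the fits without any 1 of the sgScr libraries or sgPrkci replicate 1. Cbl, the broadly expressed family member, was at 169.9 ± 5.73 CPM in sgPrkci and 147 ± 16.9 CPM in sgScr (adjusted p = 0.092), and passed under 5 of 18 alternatives, which were TMM and median-of-ratios factors, edgeR, DESeq2 and the fit without sgScr replicate 1. The number that rose was 2 without sgScr replicate 2 or without sgScr replicate 3, 7 with TMM factors and 7 with edgeR. Without sgPrkci replicate 1 it was 2, and 1 gene, Lrig1, then fell.

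The list of adaptors and the RAS-ERK cascade held 25 genes, of which 9 rose and 1 fell, beside 11.4% and 20.5% of all tested genes. Their median log2 fold change was 0.18. Mapk3, the gene of ERK1, rose to 232 ± 17.4 CPM in sgPrkci, against 109 ± 20.9 CPM in sgScr (log2 fold change 1.09, limma adjusted p = 2.7e-08). Rps6ka1, the gene of the ERK-activated kinase RSK1, rose to 45.8 ± 8.74 CPM, against 22.8 ± 3.29 CPM in sgScr. Among the others that rose, the log2 fold changes of Nck2, Rps6ka3, Pik3r1, Map2k1 and Nras were 0.30 to 0.65. The calls of Pik3r1 and Map2k1 ended under 4 of 18 alternatives each and that of Nras under 5, in all 3 cases with plain eBayes moderation and without sgScr replicate 1 or sgPrkci replicate 2. Pik3r1 also lost it without sgScr replicate 3, Map2k1 without sgPrkci replicate 1, and Nras without sgScr replicate 2 or sgPrkci replicate 1. Shc1, which docks on activated receptors, fell to 47.3 ± 5.03 CPM in sgPrkci, against 63.2 ± 3.29 CPM in sgScr (adjusted p = 0.0097). Its call ended under 7 of 18 alternatives, among them TMM factors (adjusted p = 0.050), edgeR (0.055), DESeq2 (0.17) and the fits without sgScr replicate 2 (0.058) or without sgPrkci replicate 2 (0.062). Without sgPrkci replicate 2 the list had 5 genes that rose and 0 that fell in limma, where 3 were lower at an unadjusted p under 0.05. With edgeR 12 rose and with DESeq2 9, and by both 0 fell.

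Of 20 tested targets and feedback genes of ERK signalling 7 rose and 4 fell, and the list median was 0.09. The share of all tested genes was 11.4% higher and 20.5% lower, so 4 of 20 lower is close to the background. With edgeR and with DESeq2 7 rose and 3 fell. Ier3 and Junb, early response genes, rose by 1.54 and 0.53 and Egr1 by 0.75. The feedback genes Spry2 and Spry4 rose, by 0.50 and 0.64, whereas their paralog Spry1 fell to 17.6 ± 2.97 CPM in sgPrkci, against 35.3 ± 1.91 CPM in sgScr (log2 fold change -0.97, limma adjusted p = 2.7e-05). Ccnd1, the cyclin D1 gene, fell by 0.72 on the log2 scale, and the ETS factor genes Etv5 and Etv4 fell by 0.97 and 0.34. Dusp6, a phosphatase gene widely read as an ERK output, was at 130.4 ± 10.3 CPM in sgPrkci and 140.1 ± 3.98 CPM in sgScr (adjusted p = 0.43). Fos and Fosl1 did not pass either (adjusted p = 0.85 and 0.96). The call of Etv4 ended under 13 of 18 alternatives, among them edgeR, DESeq2, every other scaling tried and the fits without sgScr replicate 1 or 2 or sgPrkci replicate 1 or 3, and its sign turned with chromosome medians removed. That of Spry4 ended with plain eBayes moderation and without sgScr replicate 2 or sgPrkci replicate 1, and that of Spry2 with plain eBayes moderation.

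**Figure D5:**
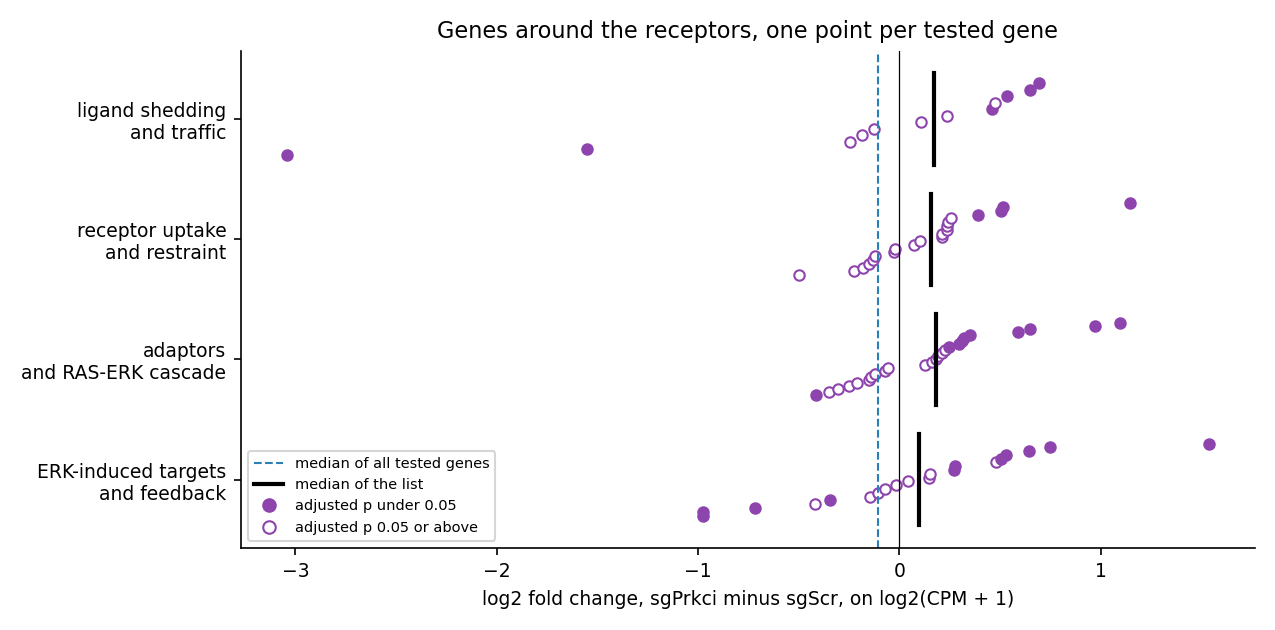
Log2 fold change, sgPrkci minus sgScr, on log2(CPM + 1) (horizontal axis) of each tested gene in 4 lists around the receptors, 1 point per gene, filled at an adjusted p under 0.05. Black bars mark list medians of 0.09 to 0.18 and the dashed line the median of all tested genes at -0.11. The 2 points at the far left are Adam19 and Timp3.

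Among 7987 genes that averaged 10 CPM or more, those with the profile most like Tgfa over the 6 libraries were Galnt4, Ephb2 and Pls1. The measure was the Euclidean distance between log2(CPM + 1) profiles centred on their means, 0.194, 0.227 and 0.231. Pls1, a brush border actin-bundling protein gene, was at 143 ± 6.92 CPM in sgPrkci and 79.1 ± 8.95 CPM in sgScr. Ephb2, an ephrin receptor gene, was at 37.8 ± 0.918 CPM in sgPrkci and 19.6 ± 3.07 CPM in sgScr.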

How the data were processed

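Single-end 3' tag libraries (Lexogen QuantSeq FWD, molecular identifiers optional) were prepared from 200 ng of RNA, per the labels' protocols. Per the submitters' processing notes the genome was GRCm38. No source used here names the aligner, the counter, its strand setting or annotation, or whether molecular identifiers were collapsed. The authors deposited CPM, 1 column per library, for 20756 genes, and 100% of the values were whole multiples of 1 read (tolerance 1e-06 of a read), so reads were recovered. GENCODE M21 gave positions and symbols, matched by identifier, and lacked 81 of the genes.

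Libraries were grouped by genotype label, where the control is spelled sgScbr. Replicate numbers follow accession order and pair nothing. The chi-square per degree of freedom between libraries of a group was 1.71 to 3.40, so none agreed within sampling noise. The 12195 genes that passed the filter were tested with limma 3.58.1 (R 4.3.3) on log2(CPM + 1), with trend and robust moderation, two-sided, Benjamini-Hochberg adjusted over all of them, and called at an adjusted p under 0.05. This scale understates the change of low genes. Fits were tested on simulated counts with a common dispersion, few changed genes and no chromosome shifts, unlike these data. That test bears on the code only. The settings varied were the pseudocount (0.25 or 5 CPM), the filter (none or 5 CPM), scaling by TMM, by median of ratios or by quantiles, totals without Gm42418 and mitochondrial genes, plain eBayes, edgeR 4.0.16, DESeq2 1.42.0, chromosome medians removed (chromosomes with at least 50 genes at 10 CPM), each library left out, and a threshold of 0.01. Intervals of read ratios and the floor of 3 reads cover counting error only.

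The members and lists were chosen with earlier results of these data known. Named were all members and other family genes, up to 2 called genes with the lowest p per direction and list, and tested genes within 500 kb of the ligand cluster. Other list genes were named after their values were seen, as were Mien1 and the other overlapping genes. Some genes of the lists are counted but not reported here by name.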

Additional observations from a re-analysis of the deposited data

How the results depend on the processing

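The calls of Tgfa, Btc and Areg held under all 18 alternatives, with log2 fold changes of 0.80 to 1.05, 0.53 to 0.74 and 0.37 to 0.53. The number of members called was 3 to 6 under all alternatives, 3 to 4 with a library left out, and 3 at an adjusted p under 0.01. A count over 21 genes covered the tested members and, from each list, the called genes with the lowest p. Genes picked by lowest p lose a call less readily than others, and Etv4, Lrig2, Socs5 and Nras were not among them. Of their 377 values 352 kept direction and side of the threshold, 13 lost the call and 9 gained one. The other 3, all of Egfr, turned sign. With a library left out, the log2 fold change of Egfr ran from -0.14 to 0.17 (limma adjusted p of 0.63 to 0.99). DESeq2 called 2540 genes of all tested, against 3882 in limma, and leaving out a library gave 2852 to 3794. Among receptor uptake genes 7 were called with TMM factors, 8 with median-of-ratios factors, 7 with edgeR, 2 with plain eBayes moderation and 2 to 5 with a library left out. For the adaptor and RAS-ERK list the number was 4 with plain eBayes moderation and 5 to 10 with a library left out, and for ERK-induced targets 6 with plain eBayes moderation. The causes were not tested. No paired analysis was possible because the replicate numbers follow accession order. At this depth Ereg had 0 reads, and Epgn had 4 reads in sgPrkci and 8 in sgScr, so neither passed the filter.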
